A study of Mus musculus with 12 samples.

Results

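The genes described here are 8 members of the apoptosis machinery: the initiator caspases Casp8 and Casp9, the survival proteins Bcl2 and Bcl2l1 (BCL-XL), the effector Bax, and the BH3-only genes Bcl2l11 (BIM), Bbc3 (PUMA) and Pmaip1 (NOXA). They were taken by symbol from a table of 23253 mouse genes, and all 8 were among the 17909 genes that passed the filter on low counts and were tested. The samples were 12 RNA sequencing libraries from C57BL/6 mice, labelled as cortical neurons isolated by flow cytometry, with 3 libraries in each of 4 groups. Adult control animals had no stroke. The stroke group was adult mice with a focal lesion 2 mm across, made by shining cold light on the brain for 15 min after rose bengal, a dye that clots vessels where it is illuminated. A further adult stroke group carried the label of an siRNA against GDF10, a secreted factor of the TGF-beta family, and is called siRNA-labelled stroke here. The last group is labelled P4 and is named an animal control; the labels do not spell the term out, and their growth text gives adult mice for every sample. The labels give neither the time between stroke and collection, nor the sorting marker, nor whether the 3 libraries of a group came from separate animals, so p-values measure the spread between these libraries, which may be technical. Replicates carried the numbers 1 to 3 in adult control and siRNA-labelled stroke and 4 to 6 in the other groups. Any batch behind these numbers cannot be told apart from the groups in comparisons between groups with different numbers. Adult control and siRNA-labelled stroke share their numbers, as do stroke and P4.

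Apoptosis is reached by routes that meet at the caspases, proteases made as inactive precursors. In the death receptor route, ligands such as FAS ligand bring FADD and caspase-8 together, and caspase-8 then cleaves the executioner caspases; CFLAR holds caspase-8 in check, and active caspase-8 also keeps RIPK1- and RIPK3-dependent necroptosis from starting. In the mitochondrial route, BAX and BAK1 open the outer mitochondrial membrane, released cytochrome c assembles APAF1 into the apoptosome, and the apoptosome activates caspase-9. BCL2, BCL-XL and MCL1 bind and restrain BAX, BAK1 and the BH3-only proteins, and the BH3-only proteins tip that balance towards death. In the developing brain this balance helps to set which neurons survive, and BCL-XL is a main survival member in adult neurons.

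Promoter sequence is described for 7 of the 8 genes, all but Pmaip1. It is the 250 bases before each start in the RefSeq promoter table (build GRCm38.p6, the assembly also called mm10). Bcl2l11 has 2 such windows, Bbc3 and Bcl2l1 have 3 each, and the other genes have 1. Casp8 and Casp9 are shown whole, because they are the 2 initiator caspases and P4 was the lowest group for Casp8 and the highest for Casp9, as described below. Capitals in the Casp8 window (chr1:58802252-58802501, plus strand) mark the letters AANNGAAA on either strand, the core of interferon regulatory factor (IRF) sites, and capitals in the Casp9 window (chr4:141793362-141793611, plus strand) mark GGGCGG, the GC box. The Casp8 window lies inside the RefSeq span of the gene, which is chr1:58795233-58847503, and Casp9 spans chr4:141793612-141815978. Neither window overlaps an annotated exon.
Casp8: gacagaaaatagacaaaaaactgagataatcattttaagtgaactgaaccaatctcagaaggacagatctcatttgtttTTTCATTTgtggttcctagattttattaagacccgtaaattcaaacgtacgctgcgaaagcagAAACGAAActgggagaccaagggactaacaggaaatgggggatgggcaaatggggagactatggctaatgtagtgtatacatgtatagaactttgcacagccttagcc
Casp9: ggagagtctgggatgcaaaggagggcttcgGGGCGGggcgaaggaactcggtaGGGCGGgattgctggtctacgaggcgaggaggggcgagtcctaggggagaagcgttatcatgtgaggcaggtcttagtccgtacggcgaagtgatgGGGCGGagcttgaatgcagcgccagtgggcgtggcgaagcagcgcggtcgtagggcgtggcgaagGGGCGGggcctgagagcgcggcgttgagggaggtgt
The Casp8 window is 39.6% G and C and holds 2 IRF cores, at 171 to 164 and 108 to 101 bases before the start, and 0 GC boxes. The Casp9 window is 66% G and C and holds 4 GC boxes and no IRF core. The 3 Bcl2l1 windows, not shown, are 48.4%, 53.2% and 47.6% G and C and hold 0 GC boxes. Windows 2 and 3 of Bcl2l1 hold an IRF core each, and windows 1 and 2 lie wholly within its exons. Of 32851 promoter windows of the same length, 21.3% held at least 1 IRF core and 32.7% at least 1 GC box, so such matches are common.

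Shorter stretches are shown for the genes of the mitochondrial route, because the transcription factors described below include FOXO and p53 family members. Capitals mark the forkhead core GTAAACA, read by FOXO factors, in Bcl2l11 (chr2:128125800-128125828, plus strand) and Bbc3 (chr7:16310083-16310111, plus strand, where the match is on the minus strand). They mark the cyclic AMP response element core TGACGT in Bcl2 (chr1:106714381-106714408, minus strand) and a p53 half-site, 10 bases long, in Bax (chr7:45467079-45467110, minus strand).
Bcl2l11: aagacactaggGTAAACAcgccggggtgg
Bbc3: tctggcgggttTGTTTACaaacaatgggg
Bcl2: tgaatgaacggTGACGTacgtacaggaa
Bax: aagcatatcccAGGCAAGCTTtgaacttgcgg
These matches were held by 3.17% (forkhead core), 6.47% (response element core) and 7.13% (p53 half-site) of the 32851 windows. The forkhead core was in window 1 of 2 for Bcl2l11 and in window 2 of 3 for Bbc3. A gene with more windows has more room for a match. No Bbc3 window held a p53 half-site. The AP-1 letters TGANTCA, held by 6.75% of all windows, were found in none of the members' windows. All motifs were searched on both strands, and none of the matches shown overlapped a match of another motif. A match is a description of the letters only. The RefSeq spans of these genes are chr2:128126038-128162547 for Bcl2l11, chr7:16308398-16318334 for Bbc3, chr1:106538176-106714290 for Bcl2 and chr7:45461695-45466903 for Bax, and Bcl2l1 spans chr2:152758732-152833803.

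Total counts were between 10517638 and 48633350 per library. Adult control 3 was the shallowest library, and it had the lowest level in its group of 6 of the 8 members. Gdf10, the gene named by the siRNA, had 15, 21 and 0 reads counted in adult control libraries, 0, 5 and 0 in stroke libraries, 8, 7 and 1 in the siRNA-labelled ones, and 189, 241 and 33 in the P4 ones. It was not lower in the siRNA-labelled than in the other stroke libraries (log2 fold change 2.34, SE 1.67, adjusted p = 0.778). The labelled cell type was checked with marker lists. Pan-neuronal markers took 0.181% to 0.629% of counts in the 9 adult libraries and 0.606% to 0.730% in P4. Oligodendrocyte markers took 3.67% to 10.28% in the adult libraries, above the neuronal share in each, and 0.0104% to 0.0276% in P4. Excitatory neuron markers took 0.0571% to 0.126% in adult control and 0.272% to 0.341% in P4. In stroke they took 0.0223% to 0.0323%, and in siRNA-labelled stroke 0.0219% to 0.0405%. The part of these shares in the members' differences was not tested. Astrocyte markers took 0.401% to 0.607% in adult control against 0.0550% to 0.0842% in stroke and 0.0762% to 0.143% in siRNA-labelled stroke. In such bulk libraries, fewer cells of a type and less RNA per cell cannot be told apart.

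Compared per length, as reads scaled to exon length and library size (RPKM), the mean level over the 12 libraries was highest for Bax (8.81 RPKM) and then Bcl2l1 (5.87 RPKM). Casp8 (4.21 RPKM), Bcl2l11 (3.51 RPKM) and Casp9 (3.51 RPKM) were in the middle. Bcl2 (1.57 RPKM), Pmaip1 (1.24 RPKM) and Bbc3 (0.449 RPKM) were lowest. Single libraries crossed this order widely: Casp8 ran from 0.0906 to 20.2 RPKM and Bax from 3.29 to 14.7 RPKM. All levels below are CPM, counts rescaled to a common library size with TMM factors, and changes are log2 fold changes from edgeR's quasi-likelihood test with Benjamini-Hochberg adjustment over all genes tested. A gene is called changed at an adjusted p under 0.05.

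**Figure D1:**
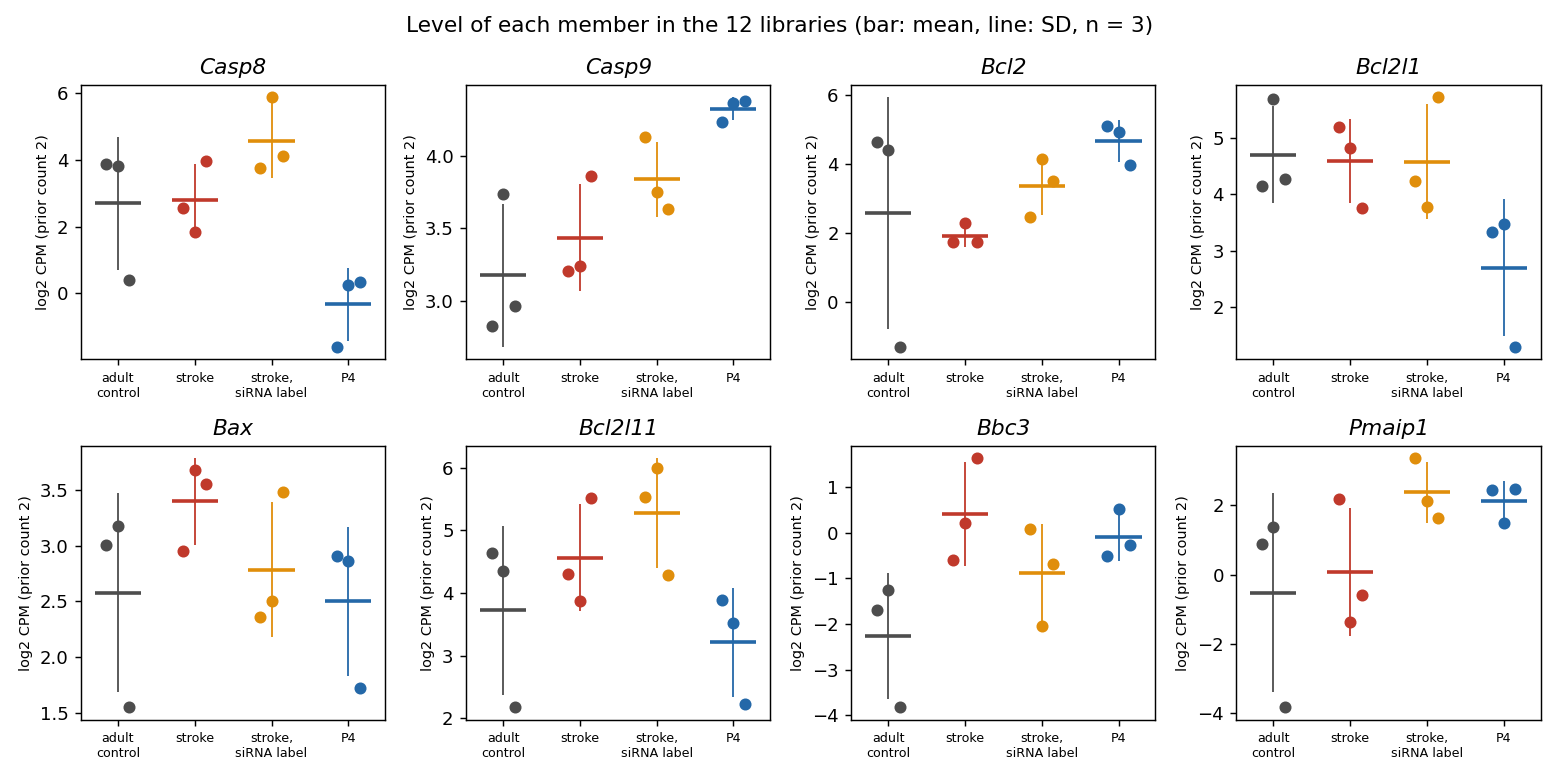
Level of each of the 8 genes in the 12 libraries as log2 CPM with a prior count of 2 (vertical axis, scaled separately for each gene), by group (horizontal axis). Points are libraries, bars are means and lines are the SD (n = 3); Casp8 lies lowest in P4, and adult control 3 lies far below its group for Casp8, Bcl2, Bcl2l11 and Pmaip1.

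Casp8, the initiator caspase of the death receptor route, was the only member with a difference among the 4 groups that passed the test (adjusted p = 0.0141). Of all genes tested, 20.1% passed that test. Casp8 was at 14.5, 14.04 and 1.25 CPM in adult control libraries 1 to 3, and at 5.80, 3.49 and 15.6 CPM in stroke libraries 4 to 6. It was at 13.4, 58.3 and 17.1 CPM in siRNA-labelled stroke libraries 1 to 3. In P4 libraries 4 to 6 it was at 0.262, 1.13 and 1.20 CPM, from 14, 57 and 19 counts. All 3 P4 libraries were below all 9 adult libraries, although P4 6 came close to adult control 3, while the 3 adult groups overlapped. The group means were 29.6 ± 24.9 (siRNA-labelled stroke), 9.93 ± 7.52 (adult control), 8.31 ± 6.45 (stroke) and 0.865 ± 0.524 CPM (P4; all SD, n = 3).

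Casp8 was lower in P4 than in adult control by edgeR's quasi-likelihood test (log2 fold change -3.55, SE 0.99, 95% interval -5.65 to -1.44, adjusted p = 0.0223). It was higher in stroke than in P4 (3.28, SE 0.98, adjusted p = 0.0280) and in siRNA-labelled stroke than in P4 (5.11, SE 1.06, adjusted p = 0.00272). These 3 comparisons share the P4 libraries. The call against siRNA-labelled stroke held in all 12 fits that left out 1 library. The call against adult control was lost without adult control 1 (adjusted p = 0.0607), P4 4 (0.0952) or P4 5 (0.0594) and in a fit of those 2 groups alone (0.0962). The call against stroke was lost without stroke 4 (0.0566), stroke 6 (0.139), P4 4 (0.112), P4 5 (0.0667) or P4 6 (0.0561). Between stroke and adult control the difference was -0.27 (95% interval -2.16 to 1.62, adjusted p = 0.905), and between siRNA-labelled stroke and stroke it was 1.84 (95% interval -0.11 to 3.78, adjusted p = 0.685). These intervals leave room for changes of several-fold.

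Casp8 is expressed widely in immune cells, and its level was set beside the share of counts on 10 microglia and macrophage markers, all of which were in the table. The summed share was 0.0605% to 0.0881% in adult control, 0.0289% to 0.100% in stroke, 0.131% to 0.228% in siRNA-labelled stroke and 0.00206% to 0.00362% in P4. The microglial gene Tmem119 was at 0 counts in P4 5 and P4 6, and Aif1 was at 0 counts in adult control 3. The library with the most Casp8, siRNA-labelled stroke 2, also had the highest marker share, and P4 4, with the least Casp8, had the lowest. Adult control 3 had little Casp8 at a marker share near that of its group. The part of these markers in the Casp8 differences was not tested.

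**Figure D2:**
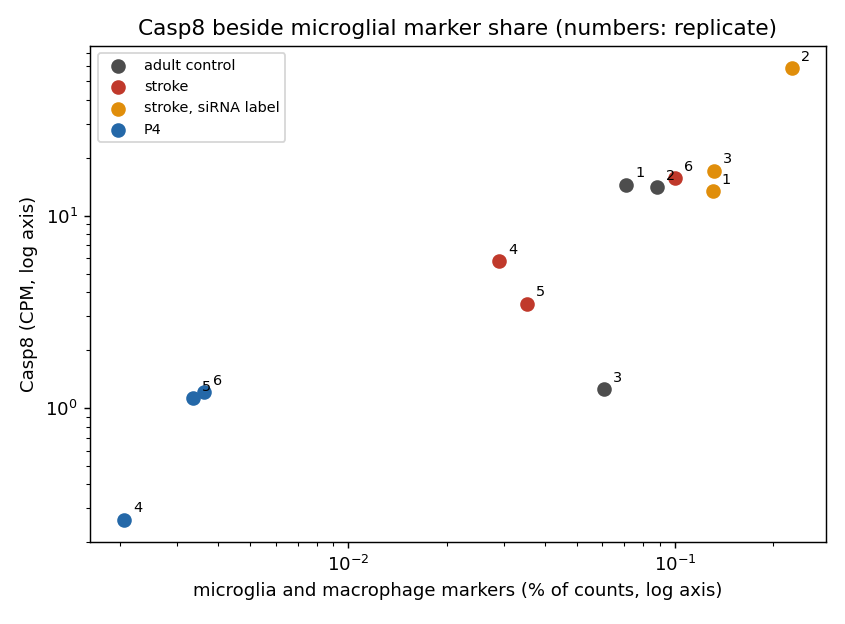
Casp8 level (CPM, log axis) against the share of counts on 10 microglia and macrophage markers (percent, log axis), with 1 point for each of the 12 libraries, coloured by group and numbered by replicate. P4 libraries lie at the lower left, at shares of at most 0.00362%, and siRNA-labelled stroke 2 at the upper right with 58.3 CPM; adult control 3 lies below the other adult libraries at 1.25 CPM.

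Casp9, the initiator of the mitochondrial route, had its highest level in P4, where Casp8 had its lowest. Its highest group mean was 2.13 times its lowest. It was at 7.02, 13.2 and 7.76 CPM in adult control, 9.15, 9.39 and 14.4 CPM in stroke, and 17.4, 13.4 and 12.4 CPM in siRNA-labelled stroke. In P4 it was at 18.7, 20.5 and 20.7 CPM. The P4 libraries were above all 9 adult libraries, and the adult groups overlapped. The difference between P4 and adult control was 1.09 (SE 0.48, 95% interval 0.06 to 2.12) with an unadjusted p of 0.0394 and an adjusted p of 0.145 in edgeR's quasi-likelihood test, so it was not called. It was called by DESeq2's Wald test (1.13, adjusted p = 0.0211). Against adult control, stroke differed by 0.23 (95% interval -0.79 to 1.25, adjusted p = 0.839) and siRNA-labelled stroke by 0.62 (95% interval -0.41 to 1.64, adjusted p = 0.801).

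Bcl2, the founding survival member, was lowest in the stroke libraries. It was at 24.7, 21.0 and 0.342 CPM in adult control libraries 1 to 3, the last from 3 counts. In stroke it was at 3.28, 4.87 and 3.26 CPM, and in siRNA-labelled stroke at 5.45, 17.7 and 11.4 CPM. In P4 it was at 34.2, 30.2 and 15.8 CPM. The 3 stroke libraries were below all siRNA-labelled and P4 libraries and below adult control 1 and 2, but above adult control 3. The level in stroke was 3.80 ± 0.924 CPM against 15.4 ± 13.1 CPM in adult control (SD, n = 3). The stroke difference was -2.02 (SE 0.92, 95% interval -3.99 to -0.05), with an unadjusted p of 0.0453 and an adjusted p of 0.304 by edgeR's quasi-likelihood test. Without adult control 3 it was -2.58 and was called (adjusted p = 0.0414), so that 1 library decides the call. Over the alternatives, its adjusted p ran from 0.0414 to 0.513.

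Against P4, Bcl2 in stroke differed by -2.81 (SE 0.95, 95% interval -4.84 to -0.78) at an adjusted p of 0.0519, just outside the threshold. The alternatives gave adjusted p-values from 0.000743 to 0.165 for it, and DESeq2's Wald test called it (-2.91, adjusted p = 0.00393). Bcl2 was higher in each siRNA-labelled than in each stroke library, by 1.59 (SE 0.91, 95% interval -0.35 to 3.54, adjusted p = 0.736). It differed from adult control by -0.42 (95% interval -2.32 to 1.47) in siRNA-labelled stroke and by 0.79 (95% interval -1.11 to 2.70) in P4, and neither passed the test.

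Bcl2l1, which encodes BCL-XL, was the more abundant of the 2 survival genes per length, at a mean of 5.87 RPKM against 1.57 RPKM for Bcl2 over the 12 libraries. In P4 the order was the other way, at 2.01 RPKM for Bcl2l1 and 2.92 RPKM for Bcl2, and Bcl2 was the higher of the 2 in each P4 library. Bcl2l1 was at 17.6, 51.3 and 19.2 CPM in adult control, 36.1, 28.2 and 13.5 CPM in stroke, and 18.8, 13.5 and 52.2 CPM in siRNA-labelled stroke. In P4 it was at 9.96, 11.06 and 2.41 CPM. The P4 libraries were below all 9 adult libraries, and the adult groups overlapped. The difference between P4 and adult control was -1.91 (SE 0.70, 95% interval -3.39 to -0.42), with an unadjusted p of 0.0155 and an adjusted p of 0.0778, so it was not called by edgeR's quasi-likelihood test. The Wald test of DESeq2 called it (-1.89, adjusted p = 0.0186). Stroke differed from adult control by -0.18 (95% interval -1.62 to 1.26) and siRNA-labelled stroke by -0.06 (95% interval -1.50 to 1.38). Bcl2 and Bcl2l1 thus had opposite signs between P4 and adult control, 0.79 and -1.91, of which neither was called.

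Bax, the pore-forming effector held in check by both survival genes, moved least over the groups. It was at 7.97, 8.99 and 2.85 CPM in adult control, 7.70, 12.8 and 11.7 CPM in stroke, 5.07, 5.62 and 11.09 CPM in siRNA-labelled stroke, and 7.45, 7.21 and 3.23 CPM in P4. The highest group mean was 1.8 times the lowest, against 34.2 times for Casp8. Stroke libraries were all above the P4 libraries and overlapped adult control. The difference between stroke and adult control was 0.69 (SE 0.65, 95% interval -0.69 to 2.08, adjusted p = 0.629), and between P4 and adult control it was -0.15 (SE 0.64, 95% interval -1.53 to 1.23, adjusted p = 0.911).

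The balance of Bax to Bcl2 was taken within each library as log2 of the ratio of their counts, with 0.5 added to each. The ratio was -1.63, -1.22 and 2.87 in adult control libraries 1 to 3, and 1.23, 1.39 and 1.84 in stroke, -0.10, -1.65 and -0.04 in siRNA-labelled stroke, and -2.20, -2.06 and -2.28 in P4. Stroke libraries therefore had more Bax than Bcl2 counts, and siRNA-labelled and P4 libraries fewer. The group values were 1.49 ± 0.32 (stroke), 0.004 ± 2.49 (adult control), -0.60 ± 0.91 (siRNA-labelled stroke) and -2.18 ± 0.11 (P4; SD, n = 3). The stroke libraries did not overlap the siRNA-labelled or P4 libraries but lay within the range of adult control. Adult control 3, whose ratio rests on 3 Bcl2 counts, sets that range, and without it the adult control mean was -1.43. No test was made on this ratio, which compares counts of transcripts of different length and has meaning only as a difference between libraries.

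**Figure D3:**
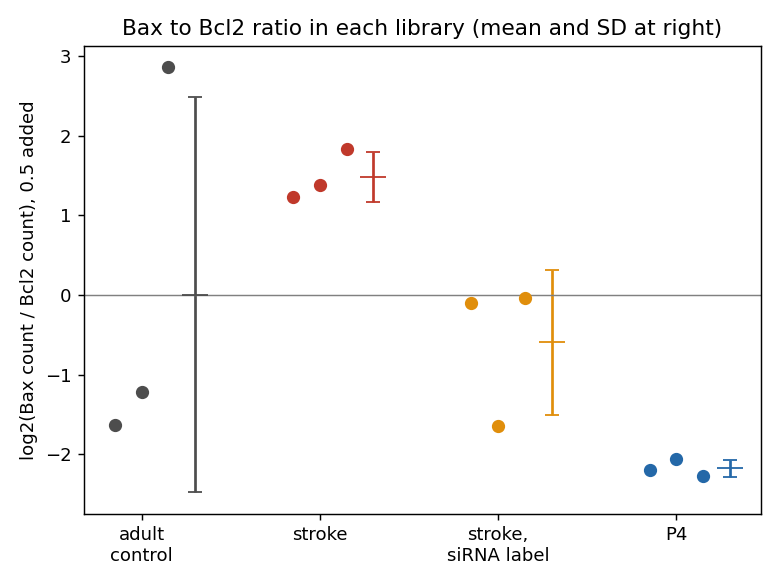
Log2 of the ratio of Bax to Bcl2 counts (vertical axis, 0.5 added to each count) in every library, by group (horizontal axis); the cross beside each group is its mean with SD (n = 3). The 3 stroke libraries lie between 1.23 and 1.84, above the siRNA-labelled and P4 libraries, and adult control 3 lies at 2.87, far from adult control 1 and 2.

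Bcl2l11 encodes BIM, a BH3-only protein that binds all survival members and is a target of FOXO factors. It was at 24.8, 20.4 and 4.45 CPM in adult control, 19.7, 14.6 and 45.9 CPM in stroke, and 46.5, 63.6 and 19.6 CPM in siRNA-labelled stroke. In P4 it was at 14.7, 11.4 and 4.63 CPM. Each siRNA-labelled library was above each P4 library, and all other pairs of groups overlapped. The difference between siRNA-labelled stroke and P4 was called by edgeR's quasi-likelihood test (2.07, SE 0.70, 95% interval 0.58 to 3.56, adjusted p = 0.0494). That call was kept in 2 of 12 fits that left out 1 library, with adjusted p up to 0.196. The fits without any 1 of adult control 1 (adjusted p = 0.0607), adult control 2 (0.0521), stroke 4 (0.0932), stroke 5 (0.0603) or stroke 6 (0.0542) lost it, and so did those without siRNA-labelled stroke 1 or 2 or without any 1 P4 library (0.0748 to 0.196). The difference from adult control was 0.68 (95% interval -0.75 to 2.12) in stroke and 1.38 (95% interval -0.08 to 2.83) in siRNA-labelled stroke, neither of which passed the test.

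Bbc3 encodes PUMA, a BH3-only protein and p53 target, and was the least abundant member. Adult control libraries had 6, 14 and 0 counts of it, with 17, 34 and 56 counts in stroke, 16, 3 and 19 in siRNA-labelled stroke, and 34, 69 and 12 in P4. On the CPM scale, adult control was at 0.238, 0.348 and 0 and stroke at 0.587, 1.09 and 3.04. The 3 stroke libraries were above the 3 adult control libraries, and so were the 3 P4 libraries. A count of 0 in adult control 3 allows up to 3 counts, or 0.342 CPM, which is below the lowest stroke value; this covers counting error only. The difference between stroke and adult control was 2.89 with an SE of 1.46 (95% interval -0.23 to 6.02, adjusted p = 0.35), and it depended on few counts. Between P4 and adult control it was 2.13 (95% interval -0.91 to 5.17, adjusted p = 0.354).

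Pmaip1 encodes NOXA, a BH3-only protein that binds MCL1. Adult control libraries had 45, 102 and 0 counts of it, stroke libraries 129, 10 and 11, siRNA-labelled libraries 165, 74 and 105, and P4 libraries 288, 139 and 86. On the CPM scale these were 1.78, 2.53 and 0 for adult control, 4.45, 0.320 and 0.597 for stroke, 10.21, 4.28 and 3.03 for siRNA-labelled stroke, and 5.39, 2.75 and 5.45 for P4. The stroke libraries differed widely among themselves, with stroke 4 above all adult control libraries and stroke 5 and 6 below adult control 1 and 2. All siRNA-labelled and all P4 libraries were above all adult control libraries. The differences from adult control were 0.29 (95% interval -2.30 to 2.87, adjusted p = 0.929) in stroke, 1.99 (95% interval -0.68 to 4.65, adjusted p = 0.732) in siRNA-labelled stroke and 1.62 (95% interval -1.02 to 4.26, adjusted p = 0.425) in P4.

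**Figure D4:**
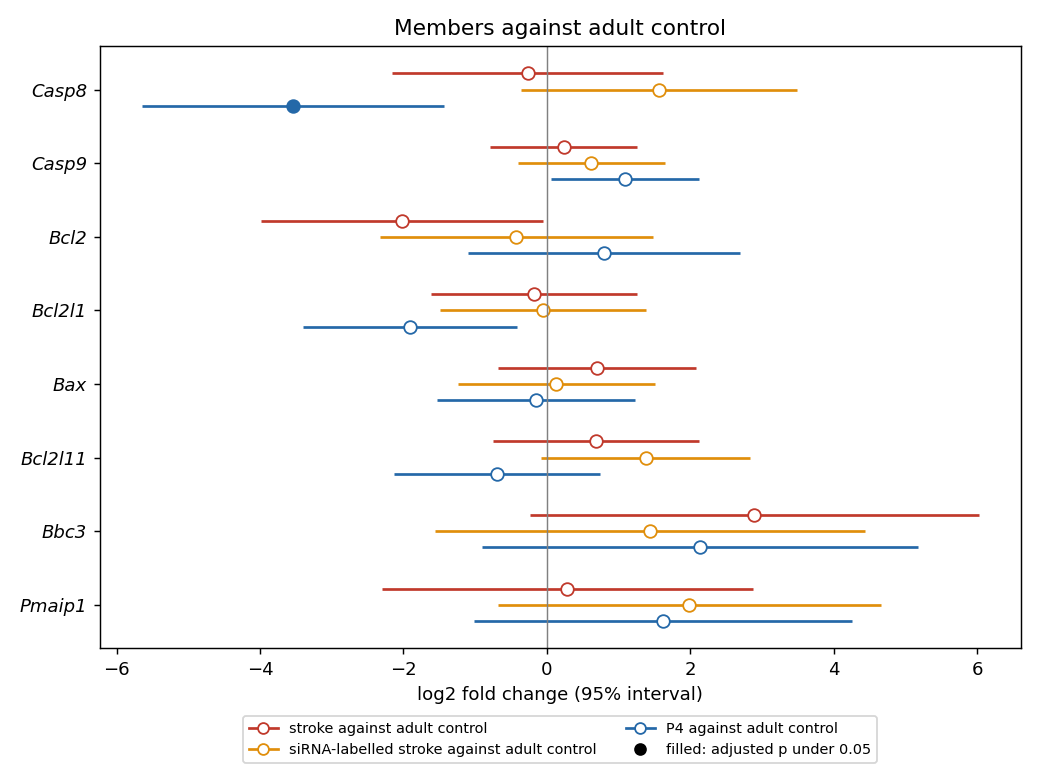
Log2 fold change against adult control (horizontal axis) with its 95% interval for each of the 8 genes (vertical axis) in stroke, siRNA-labelled stroke and P4. Filled points passed an adjusted p of 0.05; Casp8 in P4, at -3.55, is the only filled point, and the widest intervals belong to Bbc3 and Pmaip1.

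Counted over the 8 genes, edgeR's quasi-likelihood test called 0 in stroke against adult control, where it called 126 genes or 0.704% of those tested. It called 0 of 8 in siRNA-labelled stroke against adult control (background 21 genes, 0.117%) and 0 of 8 between siRNA-labelled stroke and stroke (background 1 gene, 0.00558%). With both stroke groups as 1 contrast against adult control it called 0 of 8 (background 103 genes, 0.575%). DESeq2's Wald test also called 0 of 8 in these 4 comparisons, where it called 7.72%, 2.07%, 0.942% and 6.53% of all genes, in the same order. An unadjusted p under 0.05 was reached by 1 member in the first, Bcl2, and by 0 in the other 3. At backgrounds this low, nothing about the members can be read from a count of 0 among 8.

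Where P4 was one of the groups, the background was much higher. In P4 against adult control, 1 of 8 members was called, Casp8, and 3001 genes or 16.8% of all tested. In stroke against P4, 1 of 8 was called, Casp8, against a background of 3359 genes or 18.8%. In siRNA-labelled stroke against P4, 2 of 8 were called, Casp8 and Bcl2l11, against 3517 genes or 19.6%. The members' shares, 1 or 2 of 8, were thus near the background. In the same 3 comparisons DESeq2's Wald test called 3 (Casp8, Casp9 and Bcl2l1), 4 (these and Bcl2) and 3 (Casp8, Bcl2l1 and Bcl2l11) of 8, against 28.2%, 28.6% and 28.5% of all genes. Its likelihood ratio test called 3 of 8 for any difference among the groups, against 34.3%. The 3 adult groups and P4 share libraries across these comparisons, so their counts are not independent.

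No library of one group fell within the range of the other for 1 of 8 members in stroke against adult control (Bbc3, higher), where this held for 20% of all genes. It held for 1 of 8 in siRNA-labelled stroke against adult control (Pmaip1, higher; 10.8% of all genes) and for 1 of 8 in siRNA-labelled stroke against stroke (Bcl2, higher; 15.9% of all genes). In P4 against adult control it held for 5 of 8 members, with Casp8 and Bcl2l1 lower and Casp9, Bbc3 and Pmaip1 higher, against 32.1% of all genes. The median log2 fold change of the 8 genes against adult control was 0.26 in stroke, 0.998 in siRNA-labelled stroke and 0.32 in P4, beside -0.08, -0.02 and -0.16 over all genes.

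The authors' deposited table gave fold changes close in size to these. For Casp8 it listed a log2 fold change of -3.54 at a false discovery rate of 0.00254 for P4 against adult control. For Bcl2l1 in the same comparison the authors' deposited table listed -1.89 at a false discovery rate of 0.0496. For Bcl2 the authors' deposited table listed 2.82 for P4 against stroke, at 0.0153, and -2.01 for stroke against adult control, at 0.202. In the authors' deposited table no member had a false discovery rate under 0.05 in stroke or siRNA-labelled stroke against adult control, or between both stroke groups. The authors' comparison names call the siRNA-labelled group stroke GDF10, without the word siRNA.

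The genes whose pattern over the 12 libraries was most like each member's were found among the genes tested with a mean of at least 5 CPM, by the root mean square difference of log2 CPM after each gene was centred on its own mean. Smaller values mean greater likeness. For Casp8 these were Plek (0.465), which encodes the leukocyte protein pleckstrin, and Casp4 (0.572), an inflammatory caspase, beside a median of 2.21 over all candidate genes. For Bax they were Clpp (0.154), a mitochondrial protease, and Zfp142 (0.232), and for Casp9 they were Btf3l4 (0.251) and Inpp5f (0.311). For Bcl2l1 they were Rabac1 (0.320) and Mast3 (0.340), for Bcl2l11 Nhlrc2 (0.442) and Ubald1 (0.4997), and for Bcl2 Inhbb (0.592) and Tle2 (0.680). Bbc3 was nearest to Csgalnact1 (0.553) and Gar1 (0.577). Pmaip1 had no close neighbour by this measure, with Cdk6 at 0.949 and Slc19a2 at 0.973.

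The rest of the pathway was described with 7 lists of 87 genes, of which 82 were tested. In stroke against adult control, 1 of 82 rose, 0 fell, and their median log2 fold change was 0.20, beside -0.08 over all genes; the background is the 0.704% given above. The gene was Tnfrsf21, the death receptor DR6. Tnfrsf21 was at 70.3, 96.5 and 26.6 CPM in adult control, 228, 248 and 315 CPM in stroke, 133, 164 and 94.8 CPM in siRNA-labelled stroke and 97.9, 108 and 82.6 CPM in P4. The stroke libraries were above all others. Its difference between stroke and adult control was 2.03 (SE 0.42, adjusted p = 0.0379), and the call was kept in 5 of 12 fits that left out 1 library. It was lost without adult control 1, any 1 stroke library, siRNA-labelled stroke 1 or 2, or P4 4, with adjusted p from 0.0501 to 0.182, and in a fit of the 2 groups alone (0.165). The astrocyte marker share also differed between stroke and adult control, as given above, and its part in this change was not tested. Oligodendrocyte markers took 5.01% to 6.25% of counts in stroke, within the 3.67% to 9.16% of adult control.

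The BCL2 family genes with the smallest p in stroke did not pass the test. Mcl1, a survival member, was at 191, 197 and 172 CPM in adult control and 437, 340 and 305 CPM in stroke (0.95, SE 0.31, adjusted p = 0.173). Bak1, the effector that acts beside Bax, was at 3.17, 13.0 and 2.05 CPM in adult control and 30.5, 13.6 and 19.1 CPM in stroke (1.78, SE 0.71, adjusted p = 0.246). Both genes had all stroke libraries above all adult control libraries. Of the p53 targets, 0 of 15 tested were called, 12 of 15 had a positive value, as had 8442 of all 17909 genes, and the median was 0.69. The ribosomal RNA precursor gene Rn45s took 2.11% to 2.44% of counts in the stroke libraries and 0.427%, 2.08% and 0.0964% in adult control, and its part in these values was not tested. Cdkn1a, the p53 target that halts the cell cycle, was at 10.27, 10.11 and 2.05 CPM in adult control and 51.4, 28.4 and 41.2 CPM in stroke (2.42, SE 0.60, adjusted p = 0.0866). Sesn1, another p53 target, went the other way, from 63.5 ± 29.7 CPM in adult control to 24.8 ± 10.7 CPM in stroke (-1.36, SE 0.42, adjusted p = 0.155). All stroke libraries were below all adult control libraries for Sesn1. In this comparison DESeq2's Wald test gave 79 pathway genes an adjusted p and called 6, near its background of 7.72% of all genes. These were Tnfrsf21, Cdkn1a, Gadd45a, Myc, Birc5 and Sesn1, of which Sesn1 was lower in stroke (-1.52).

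Among the pathway genes, edgeR's quasi-likelihood test called 0 of 82 in siRNA-labelled stroke against adult control and 0 of 82 between siRNA-labelled stroke and stroke, with 11 and 10 genes at an unadjusted p under 0.05. DESeq2's Wald test called 5 of 77 in the first (Bcl2a1d, Casp1, Casp6, Cdkn1a and Il1b; 2.07% of all genes) and 0 of 80 in the second (0.942% of all genes).

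In P4 against adult control, 3 of the 82 rose and 17 fell, with a median of -0.68 beside -0.16 over all genes; the share called is read against the 16.8% given above. Of the 15 death receptor genes tested, which include the partners of Casp8, 0 rose and 5 fell, with a median of -1.81. Fadd, the adaptor that recruits caspase-8, was at 10.27, 9.61 and 19.3 CPM in adult control and 2.49, 1.92 and 1.08 CPM in P4 (-2.82, SE 0.62, adjusted p = 0.00518). Cflar, the caspase-8 inhibitor, was at 34.5, 25.0 and 46.8 CPM in adult control and 5.37, 6.20 and 7.73 CPM in P4 (-2.46, SE 0.49, adjusted p = 0.00281). Ripk1 and Cyld (a deubiquitinase of the receptor complex) also fell. The ligand Tnfsf10 was called lower (-5.87), and 1 library decided that value. It was at 1.23, 0.596 and 66.7 CPM in adult control and at 0.0187, 0.0793 and 1.20 CPM in P4, so the groups overlapped. Without adult control 3 its value was -1.21 (adjusted p = 0.595). The activator and the inhibitor of caspase-8 were therefore lower in the same libraries as Casp8, and so was the share of microglia and macrophage markers given above. Oligodendrocyte markers were lower in P4 too, at 0.0104% to 0.0276% of counts against 3.67% to 9.16% in adult control. The part of either share in the P4 differences of the members and pathway genes was not tested.

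The inflammasome and pyroptosis genes had the lowest median, -3.12, with 0 of 8 higher and 4 of 8 lower: Nlrp3 (-5.92), Naip5 (-3.99), Il18 (-3.79) and Il1b (-3.57). These genes are known from microglia and macrophages, and the marker share of those cells was lower in P4 as well; its part was not tested. Among other BCL2 family genes 0 of 15 rose and 3 fell, Bcl2a1b (-7.14) and the mitophagy receptors Bnip3l (-1.27) and Bnip3 (-1.19). Bcl2a1b has near-identical copies, so its reads may have been split among them. Among the 13 genes of the apoptosome, mitochondrial release and inhibitors of apoptosis, 0 rose and 0 fell. In that list Apaf1, the apoptosome scaffold for caspase-9, was at 14.9, 14.6 and 15.9 CPM in adult control and 40.8, 41.5 and 28.01 CPM in P4 (1.28, SE 0.51, adjusted p = 0.103). Among the 7 other caspases listed, 0 rose and 0 fell, with 1 at an unadjusted p under 0.05 (Casp4, -3.95, SE 1.32, adjusted p = 0.0531).

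Of the 9 transcription factors known to act on BH3-only genes, 2 rose in P4 and 3 fell. Myc rose by 3.02 (SE 0.43) and the p53 relative Trp73 by 4.11 (SE 1.09). Foxo3, a regulator of Bcl2l11 and Bbc3, was at 41.6, 56.8 and 76.6 CPM in adult control and 22.2, 23.5 and 10.08 CPM in P4 (-1.65, SE 0.42, adjusted p = 0.0134, and 0.0771 in a fit of the 2 groups alone). Foxo4 and Jun fell as well. The 2 genes with a forkhead core in the windows shown above had opposite signs in the same comparison, -0.69 for Bcl2l11 and 2.13 for Bbc3, and neither was called. Of 15 p53 targets, Plk2 rose (2.84, SE 0.40) and Mdm2 (-1.17) and Trp53inp1 (-1.28) fell. Bax, Bbc3 and Pmaip1, which are p53 targets among the members, were not called in any comparison.

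Of the P4 calls named here, those of Fadd, Cflar, Nlrp3, Il18, Bcl2a1b, Plk2, Myc and Foxo3 held in all 12 fits that left out 1 library. Those of Cyld (11 of 12), Mdm2 and Trp73 (10 each), and Naip5, Bnip3l and Tnfsf10 (9 each) were lost in few of them. Jun kept its call in 8 of 12 fits, Il1b in 7, Trp53inp1 in 6 and Bnip3 in 2; without adult control 2 the value of Il1b was -2.32 (adjusted p = 0.145). A fit of the 2 groups alone called 8 pathway genes, which were Fadd, Cflar, Nlrp3, Il18, Bcl2a1b, Plk2, Myc and Trp73. In that fit Cyld, Mdm2, Naip5, Bnip3l, Tnfsf10, Jun, Il1b, Trp53inp1, Bnip3 and Foxo3 lost their calls, with adjusted p from 0.0635 to 0.149.

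**Figure D5:**
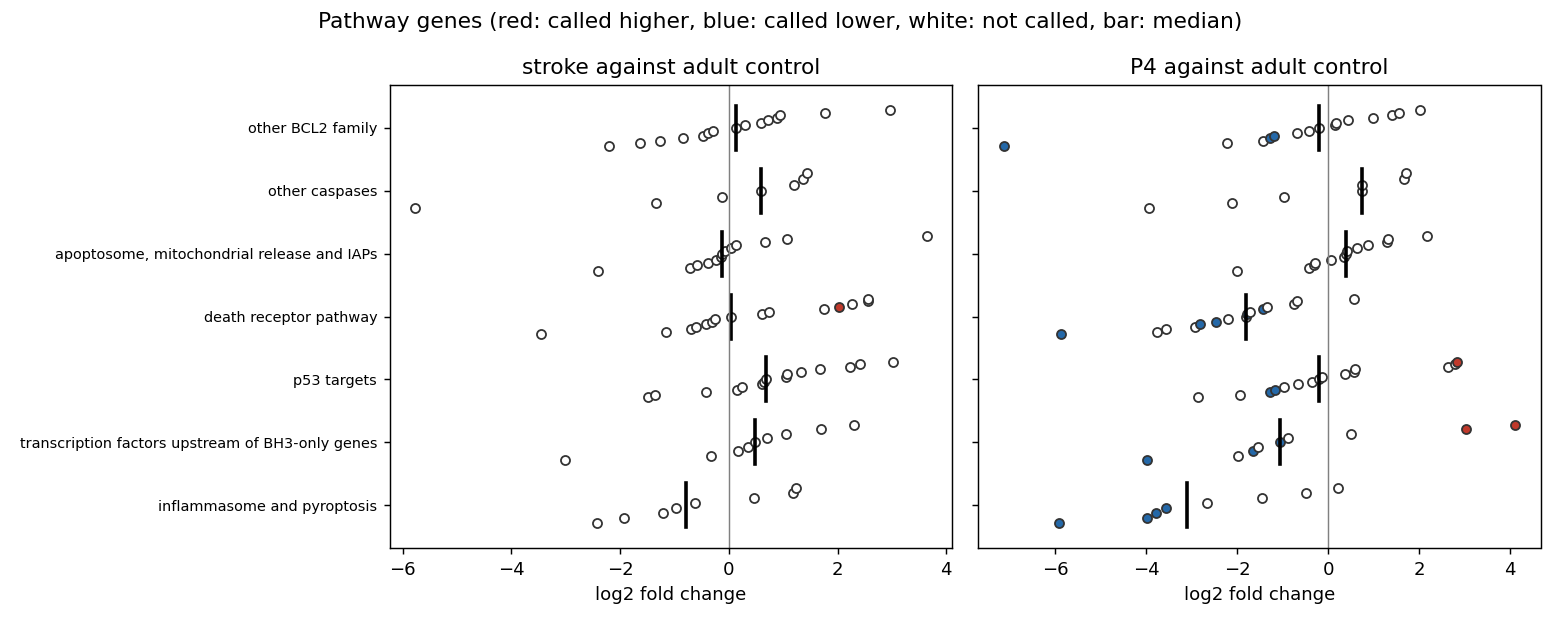
Log2 fold change (horizontal axis) of the tested genes of 7 pathway lists (vertical axis, 1 point per gene) in stroke and in P4, each against adult control. Red points were called higher, blue lower and white not called, and black bars are list medians; 1 point is coloured in stroke and 20 in P4, where the inflammasome list has the lowest median, -3.12.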

How the data were processed

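RNA was sequenced from 12 libraries; per the labels' protocols total RNA from an RNA-Microprep kit went through the Ovation RNA-seq System v2 and was read as 69 bp pairs. The submitters' processing notes list edgeR, CASAVA 1.8.2 and the mouse build mm10. Aligner, counter, annotation and strand handling were not given in the sources used here, so reads of overlapping or antisense genes cannot be told apart. The deposited table gives raw read counts per gene and library, which were analysed here. It also gives the authors' log2 fold changes, p-values and false discovery rates for pairs of groups, which are quoted only where named. The other 30 columns of values per library were not used. For P4 library 4 the column is headed P3, and it was matched by the number 4.

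Counts were analysed in R 4.3.3 with edgeR 4.0.16: filterByExpr by group set the filter on low counts, TMM gave the scaling factors, and a single quasi-likelihood fit took in all 12 libraries, with 1 mean for each group. A call needs a p-value under 0.05 after Benjamini-Hochberg adjustment, made over all tested genes in each comparison. The SE was obtained from the F statistic, as the size of the log2 fold change over the root of F, and the 95% interval uses a t distribution with 14.76 degrees of freedom. RPKM uses the summed exon length of GENCODE M21 gene models. Levels are means with SD over 3 libraries. Total counts were 10517638 to 48633350 per library, and a count of 0 allows up to 3 counts. No pair of libraries held identical values (66 pairs checked). The fit was also run on counts simulated from its own spread estimates, which cannot show how it handles outlying libraries. DESeq2 1.42.0, other scaling factors, no filter, fits of only the groups compared, a replicate block and leaving out each library were the alternatives.

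The members, lists and tests were chosen with earlier results of these data known. Named genes are the 8 members, Gdf10, in each list the called genes (the 4 with the smallest p where more were called) with the 2 smallest p in the stroke and P4 comparisons with adult control, and the 2 genes nearest each member in pattern. Ripk1, Foxo4 and the genes called by DESeq2 alone were named after their values were seen. Cell type markers were summed as a percent of counts, computed from the deposited counts. Of the chosen lists, 1 gene is not reported here.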

Additional observations from a re-analysis of the deposited data

How the results depend on the processing

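The 8 genes have 3 libraries a group, and 1 library often set a sign; where a value changed, the cause was not tested unless fewer samples or genes are named. With DESeq2 size factors the number of all genes called was 13 in siRNA-labelled stroke against adult control and 0 between both stroke groups, where upper quartile factors also gave 0. Without a filter these were 40 and 2, and both stroke groups against adult control gave 283. With DESeq2's Wald test the calls were 1293 genes in stroke against adult control, 333 in siRNA-labelled stroke against adult control, 161 between both stroke groups, 1051 for both stroke groups against adult control and 4540 in P4 against adult control, and its likelihood ratio test called 5630 for any difference. Fits of only the groups compared, which rest on fewer samples, called 43 in stroke, 0 in siRNA-labelled stroke and 1639 in P4, each against adult control, and 88 between both stroke groups.

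Of the 8 members, 2 were called in stroke against P4 with DESeq2 size factors, upper quartile factors, no filter or the 2 groups alone, each time Casp8 and Bcl2. DESeq2's Wald test called 4 of 8 there (28.6% of all genes) and 3 of 8 in P4 against adult control (28.2%), and its likelihood ratio test called 3 of 8 for any difference (34.3%). A fit of the 2 groups alone called 0 in P4 against adult control. Pathway genes called in stroke against adult control were 0 with upper quartile factors, 6 with DESeq2 and 0 with the 2 groups alone, and in P4 against adult control 31 with DESeq2 and 8 with the 2 groups alone. Scaling moved the median of all genes in stroke against adult control from -0.08 to -0.19 with DESeq2 size factors and -0.22 with upper quartile factors, and turned no member's direction.

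Leaving out each library in turn gave 31 to 548 called genes in stroke, 5 to 34 in siRNA-labelled stroke, 43 to 745 in both stroke groups and 1852 to 3099 in P4, each against adult control, 0 to 3 between both stroke groups, and 2360 to 4362 for any difference. Members called ran from 0 to 1 in stroke and in P4 against adult control, from 0 to 2 in stroke against P4 and for any difference, and from 1 to 2 in siRNA-labelled stroke against P4. Pathway genes called ran from 0 to 2 in stroke and from 9 to 22 in P4 against adult control. Signs turned within these ranges of the log2 fold change, and none of these values was called. In stroke against adult control they were -1.10 to 0.10 for Casp8, -0.0062 to 0.58 for Casp9, -0.50 to 0.51 for Bcl2l1, -1.70 to 0.95 for Pmaip1 and -1.02 to 0.024 for Xiap. In siRNA-labelled stroke against adult control they were -0.31 to 0.42 for Bax, -0.99 to 0.088 for Bcl2 and -0.87 to 0.62 for Bcl2l1. Bcl2l1 ran from -0.69 to 0.45 between both stroke groups and from -0.52 to 0.57 for both stroke groups against adult control. Bax ran from -0.50 to 0.16 in P4 against adult control. Against P4, Bax ran from -0.17 to 0.48 and Pmaip1 from -0.31 to 0.67 in siRNA-labelled stroke, and Bbc3 from -0.14 to 1.16 in stroke.

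Same-numbered libraries had correlations of their deviations from group means of -0.34 to 0.06 between adult control and siRNA-labelled stroke. Between stroke and P4 these were 0.01 to 0.16. Differently numbered libraries gave -0.32 to 0.48 and -0.175 to 0.15, in the same order. With 3 libraries a group, these values cannot decide whether the numbers pair the samples. With the replicate block, 0 genes were called in siRNA-labelled stroke against adult control, where Bcl2 changed sign to 0.31 (adjusted p = 1 in edgeR's quasi-likelihood test), and 3 members were called in stroke against P4, namely Casp8, Bcl2 and Bcl2l1. In adult control 3, the shallowest library, Bbc3 and Pmaip1 had 0 counts, which allows up to 3 counts of each.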
